A study of Mus musculus with 29 samples.

Results

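The cytosolic ribosomal protein genes were described in the distal colon of Cygb-/- and wild-type (WT) mice with and without chemically induced colitis. A gene was included when at least 1 probe set of the array named it alone and its symbol had the form of a large-subunit (Rpl) or small-subunit (Rps) protein, including Rpsa and the P stalk genes Rplp0, Rplp1 and Rplp2. For each gene the probe set with the highest mean over the 29 arrays was used. This gave 64 genes, 37 of the large subunit, 24 of the small subunit and 3 of the P stalk, out of 22180 genes that had a probe set of their own. The array has 41345 probe sets, of which 23521 named exactly 1 gene, 1820 named several and 16004 named none. Of the 64, 62 were annotated as protein coding, Rpl6l as a pseudogene and Rps4l as a transcribed pseudogene. A further 20 genes whose symbols fit had no probe set of their own, 12 because their probe sets named other genes too and 8 because no probe set named them.

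The ribosome translates mRNA into protein, and it is built in the nucleolus from ribosomal RNA and one copy of most ribosomal proteins. The small subunit reads the mRNA, the large subunit forms the peptide bond, and the P stalk recruits and activates translation factors. Ribosomal protein mRNAs are among the most abundant in growing cells. Most begin with a run of pyrimidines, the 5' terminal oligopyrimidine tract, through which the growth-controlled mTORC1 pathway regulates their translation, so that output of these mRNAs can change without a change in their amount.

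The study asked how loss of cytoglobin (Cygb), a heme protein, affects colitis and the tumors that follow it. The paper detected the protein in fibroblast-like cells, but measured more Cygb mRNA in cultured crypt organoids than in intact colons. Colitis was induced with the carcinogen azoxymethane (AOM, 7.4 mg/kg by injection) and dextran sulfate sodium (DSS, 3%), which injures the colonic epithelium. The 4 groups were AOM/DSS-treated Cygb-/- mice (n = 5), AOM/DSS-treated WT mice (n = 8), untreated Cygb-/- mice (n = 8) and untreated WT mice (n = 8). All were female adults of 18 to 24 weeks on a C57BL/6 background. The Cygb-/- mice lacked exon 2 of Cygb in every cell, from an allele made in embryonic stem cells of another strain and backcrossed, and each array held RNA of bulk distal colon. The labels and the methods differ in the number of DSS cycles and the week of sampling.

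Cygb averaged 6.30 ± 0.19 in AOM/DSS-treated Cygb-/- colons, 9.03 ± 0.29 in AOM/DSS-treated WT colons, 6.12 ± 0.17 in untreated Cygb-/- colons and 8.78 ± 0.15 in untreated WT colons (log2 values, SD). All 14 absorptive colonocyte markers and all 8 goblet cell markers measured lay in the brightest 10% of probe sets, those with a mean above 8.51. The median of an array lay between 4.76 and 4.88. Xist, the RNA of the inactive X chromosome, was at 3.82 in AOM/DSS-treated Cygb-/- replicate 3 and between 10.64 and 11.15 on the other 28 arrays, against the female label. For the 64 genes together, counts and medians in the comparisons that hold that array are given with and without it. So is each call of a named gene that it decided after AOM/DSS. For the other gene lists, the counts called after AOM/DSS in Cygb-/- colons are given both ways. The P stalk, the paralogs, the relatives outside the symbol rule, and the counts by subunit and by pyrimidine run are given with it only. In bulk tissue, fewer cells of a type and less RNA per cell cannot be told apart.

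To show the tract that sets these mRNAs apart, the first bases of 6 genes that changed after treatment are given, from 10 bases before to 20 bases from the start site of the gene in RefSeq (GRCm38.p6, 5' to 3'). Capitals mark the longest run of C and T that reaches within 5 bases of that start, where it has at least 6 bases. Where a gene had several starts in RefSeq, the start with the longest such run was taken.
Rpl15: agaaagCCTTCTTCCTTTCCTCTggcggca
Rplp2: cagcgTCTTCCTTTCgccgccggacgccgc
Rps18: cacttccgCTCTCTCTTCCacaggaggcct
Rps10: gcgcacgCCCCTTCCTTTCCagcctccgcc
Rps28: cgcgtgcggtctcgcgagagcgaaagtgag
Rpl9: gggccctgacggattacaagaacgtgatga
These windows lie at chr14:18270967-18270996 on the minus strand for Rpl15, chr7:141447641-141447670 on the plus strand for Rplp2, chr17:33955646-33955675 on the minus strand for Rps18, chr17:27635225-27635254 on the minus strand for Rps10, chr17:33824543-33824572 on the minus strand for Rps28 and chr5:65391412-65391441 on the minus strand for Rpl9. The windows of Rps28 and Rpl9, whose brightest probe sets fell in both genotypes while their dimmer ones did not, held no such run at the annotated start. By the order of probe set numbers described below, the chosen probe sets of Rpl15, Rps28 and Rpl9 lay among those of another chromosome. That of Rps18 was not settled. Whether the measured changes came from the loci of these windows was not tested.

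Among the 49 genes with a RefSeq start, 24 (49%) had a run of at least 6 pyrimidines and 15 (30.6%) one of at least 10. Over all 27025 genes with a start the shares were 24% and 5.98%, and among 69 mitochondrial ribosomal protein genes, whose ribosome is a separate one, 18 (26.1%) had a run of at least 6. In every set, a gene with several starts was counted by its longest run. A run was searched as letters only, on the strand of the gene, and its absence says nothing about the tract of a transcript that starts elsewhere.

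The chosen probe sets, each the brightest of its gene, ranged widely in level. Of the 64, 33 were among the 4135 in the brightest 10% and 31 were not, 9 of them lying below the median of all means. The brightest were those of the large-subunit genes Rpl21 (mean 12.57 over 29 arrays), Rpl29 (12.32) and Rpl28 (12.29), and the dimmest those of Rpl10l (2.72), a paralog best known from testis, Rpl32l (3.35) and Rplp2 (3.37). Brightness depends on the probes as well as on the mRNA, so it is not an order of abundance between genes. The means of the 3 dimmest lay within or below the range of the arrays' lower quartiles, 3.26 to 3.37. By their numbers, read as described below, the 3 brightest probe sets lay among those of another chromosome than their gene's. Probe sets numbered with the gene's own chromosome had means of 6.05 for Rpl21 and 9.21 for Rpl29.

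The SD over 29 arrays had a median of 0.137 over the 64 genes and of 0.229 over all probe sets. Within the brightest 10% it was 0.0869 for the ribosomal protein genes and 0.179 for all 4135 probe sets, while the 31 dimmer members had a median of 0.207. The comparisons within the brightest 10%, here and below, were not matched for level inside it. A low SD or a small difference is therefore not shown to be particular to these genes. The steadiest genes were Rpl41 (SD 0.0503), which encodes one of the shortest known proteins, Rpl19 (0.0558) and Rpl28 (0.0559). The most variable were the small-subunit genes Rps15 (0.48) and Rps13 (0.455) and the large-subunit gene Rpl30 (0.364), all outside the brightest 10%. For comparison with the reference genes that the methods tried, Rplp0, the scaffold of the P stalk, had an SD of 0.14, Polr2a 0.13, Psmb6 0.115, Actb 0.101 and Gapdh 0.0426. The probe sets used for Rpl19, Rpl28 and Rplp0 were numbered with another chromosome than the gene's. Own-chromosome probe sets had means of 4.55 for Rpl19 and 5.56 for Rplp0.

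**Figure D1:**
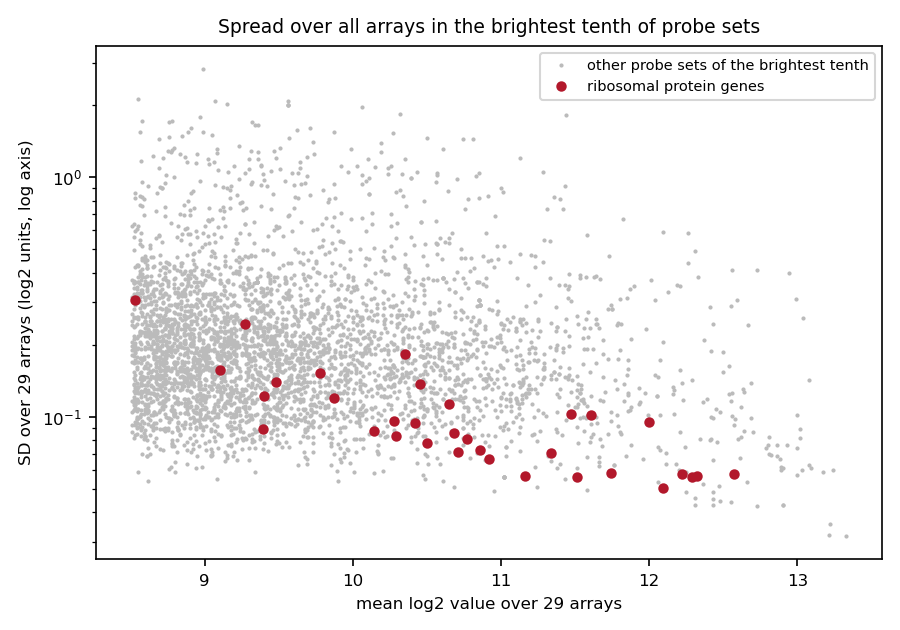
SD over 29 arrays (log axis) against the mean log2 value over 29 arrays for the brightest 10% of probe sets (grey) and the ribosomal protein genes among them (red). Most of the 33 ribosomal protein genes lie in the lower part of the cloud, with a median SD of 0.0869 against 0.179 for all 4135 probe sets.

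The question of the first comparison was what AOM/DSS colitis did to these genes in mice without cytoglobin. In Cygb-/- colons 8 of 64 ribosomal protein genes (12.5%) changed after AOM/DSS (limma, Benjamini-Hochberg adjusted over all 41345 probe sets, adjusted p under 0.05), 3 higher and 5 lower. The background over the array was 12.6% of probe sets higher and 13.5% lower, 26.1% together. In the brightest 10%, where 33 of the genes lie, 21.4% of probe sets were higher and 29.4% lower, and 3 of the 33 genes changed, each of them lower. No gene changed by 1.5-fold or more. The median log2 fold change was 0.01 over the 64 genes and -0.04 over all probe sets, with 34 genes above 0 and 30 below. The differences were small, with a median size of 0.105 against 0.168 over all probe sets, and 0.0678 for the 33 bright genes against 0.225 for the brightest 10%. In all, 49 of 64 genes stayed within 0.2 of 0. The count depended on the model, with 13 genes when the variance was fitted with a trend and robustly or when all 4 groups shared 1 fit, and 14 or 15 when only single-gene or only brighter probe sets were tested. The test of brighter probe sets left out the 9 genes below the median of all means. The share of all probe sets called under these settings is not given here, so these counts have no background. Without the array of low Xist, 8 genes were again called, 3 higher and 5 lower, 7 of them the same, with a median of -0.01, while 22.9% of all probe sets were called. The call lost was that of Rps18 (log2 fold change -0.28, adjusted p = 0.0563), and the one gained was that of the large-subunit gene Rpl39 (-0.30, adjusted p = 0.0391), named here after its values were seen.

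**Figure D2:**
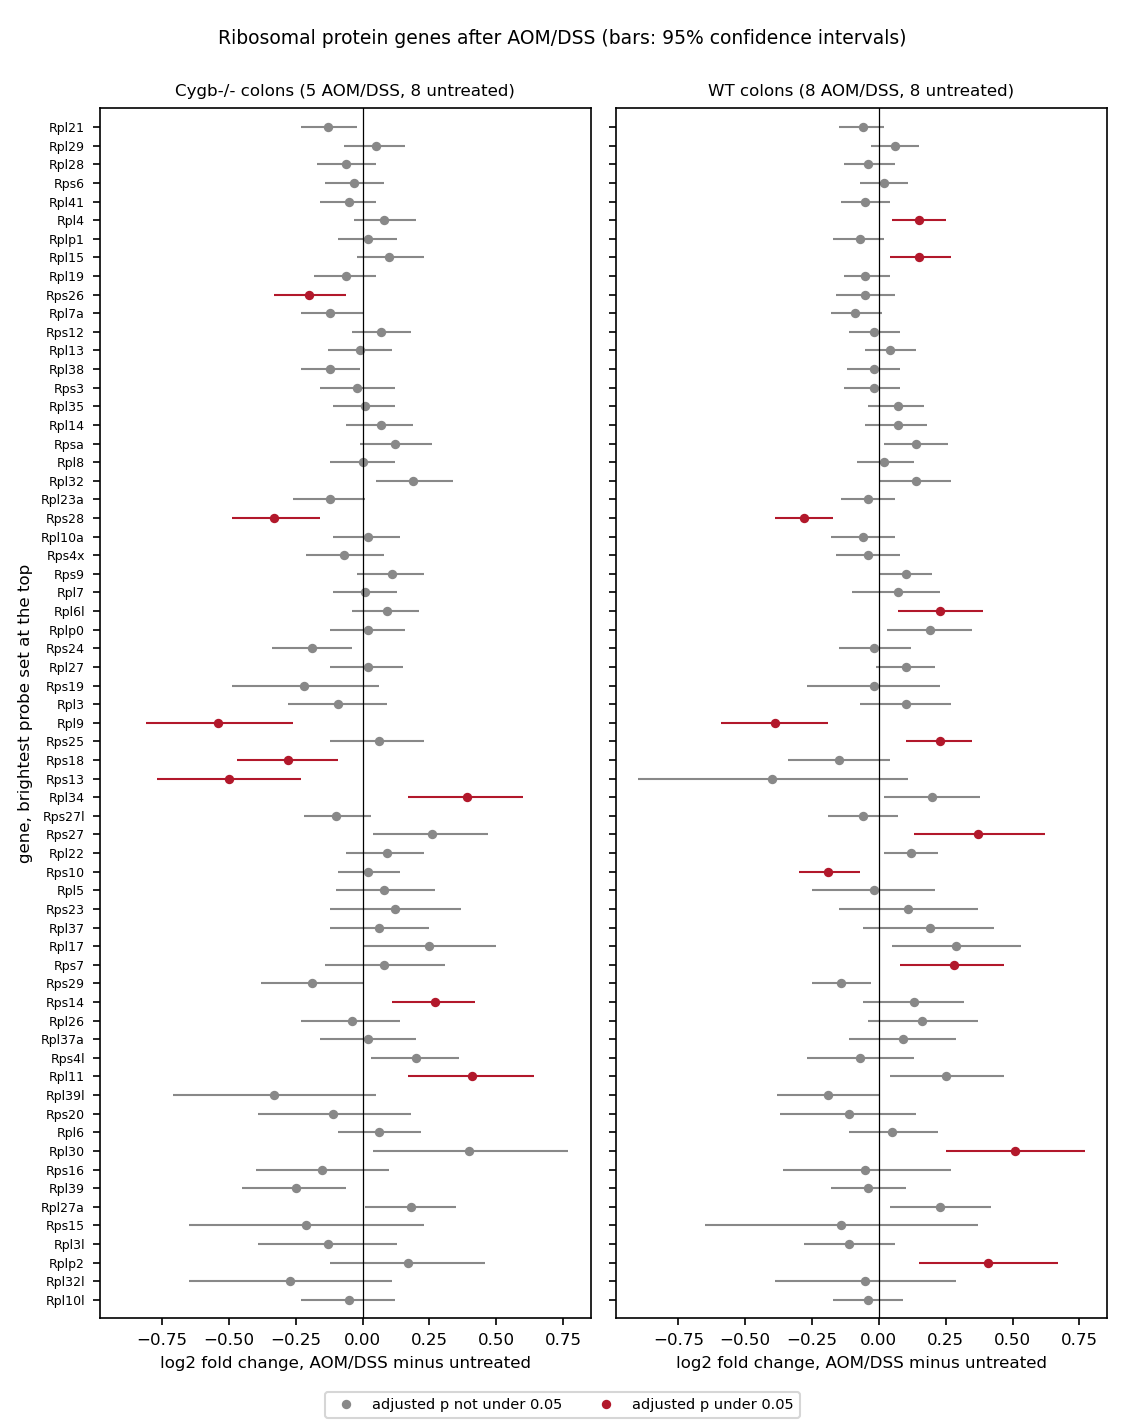
Log2 fold change after AOM/DSS (AOM/DSS minus untreated) of the 64 ribosomal protein genes, in Cygb-/- colons (left) and WT colons (right), ordered by the mean of the probe set with the brightest at the top. Bars are 95% confidence intervals and red marks an adjusted p under 0.05, which 8 genes reached in Cygb-/- and 11 in WT colons.

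The genes that fell in Cygb-/- colons were 1 of the large and 4 of the small subunit. Rpl9, part of the large subunit near its factor-binding side, was at 7.87, 8.12, 8.35, 8.06 and 8.58 in AOM/DSS-treated Cygb-/- colons, and between 8.48 and 9.17 with a median of 8.70 in untreated Cygb-/- colons. A single treated array, replicate 5, overlapped the untreated range. The log2 fold change was -0.54 (SE 0.13, adjusted p = 0.00673).

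Rps13, a core protein of the small subunit, was at 6.98, 7.71, 7.12, 7.46 and 7.51 in AOM/DSS-treated Cygb-/- colons, against 7.67 to 8.17 with a median of 7.81 in untreated ones. Replicate 2 alone reached the untreated range. The log2 fold change was -0.50 (SE 0.13, adjusted p = 0.00815). In AOM/DSS-treated WT colons the gene spread from 6.64 to 8.38 with a median of 7.16, 3 of the 8 arrays being at 8.01 or above and the other 5 at 7.29 or below, against 7.19 to 8.33 with a median of 7.86 in untreated WT colons, and the difference of -0.40 did not pass (SE 0.24, adjusted p = 0.238).

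Rps28, a small-subunit protein at the site where mRNA leaves the ribosome, was at 10.13, 10.09, 10.22, 10.27 and 9.95 in AOM/DSS-treated Cygb-/- colons, against 10.18 to 10.56 with a median of 10.51 in untreated ones. The groups overlapped through a low untreated array, replicate 7. The log2 fold change was -0.33 (SE 0.08, adjusted p = 0.00558), the smallest adjusted p among the 64 genes in this comparison.

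Rps18, in the head of the small subunit, was at 7.51, 7.72, 7.65, 7.85 and 7.58 in AOM/DSS-treated Cygb-/- colons, against 7.77 to 8.20 with a median of 7.90 in untreated ones, with replicate 4 inside the untreated range (log2 fold change -0.28, SE 0.09, adjusted p = 0.028). Rps26, a neighbor of Rps28 at the mRNA exit and mutated in some patients with Diamond-Blackfan anemia, was at 11.33, 11.27, 11.44, 11.22 and 11.47, against 11.41 to 11.62 with a median of 11.55 in untreated Cygb-/- colons. Treated replicates 3 and 5 overlapped the untreated arrays (log2 fold change -0.20, SE 0.06, adjusted p = 0.0304). Rps26 lost its call when any of 7 of the 13 arrays was left out, and Rps18 with any of 4. Rps18 had 3 probe sets, at -0.28, -0.01 and 0.14 in Cygb-/- colons and at -0.15, -0.02 and 0.22 in WT colons. The chosen one, of mean 7.85, could not be settled on a chromosome, and the one numbered with the gene's own chromosome, of mean 4.37, was at 0.14 in Cygb-/- colons (adjusted p = 0.172) and 0.22 in WT colons (adjusted p = 0.0916).

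The 3 genes that rose were of both subunits. Rpl11, which together with Rpl5 and the 5S ribosomal RNA can bind Mdm2 and so stabilize p53, was at 5.00, 4.99, 5.28, 5.38 and 5.55 in AOM/DSS-treated Cygb-/- colons, against 4.54 to 4.99 with a median of 4.86 in untreated ones. The groups touched at 4.99 and were otherwise apart (log2 fold change 0.41, SE 0.11, adjusted p = 0.0125). Rpl34, a large-subunit gene, was at 6.81, 7.17, 7.37, 7.27 and 7.05, against 6.54 to 6.96 with a median of 6.76 in untreated Cygb-/- colons, only replicate 1 lying within the untreated range (log2 fold change 0.39, SE 0.10, adjusted p = 0.00939).

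Rps14, a small-subunit gene whose loss in humans is tied to the anemia of the 5q- syndrome, was at 5.55, 5.57, 5.62, 5.78 and 5.62 in AOM/DSS-treated Cygb-/- colons, against 5.23 to 5.62 with a median of 5.35 in untreated ones. All untreated arrays but replicate 5 lay below the treated ones (log2 fold change 0.27, SE 0.07, adjusted p = 0.0125).

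In 2 of the 64 genes all treated arrays lay apart from all untreated ones in Cygb-/- colons, as they did in 15% of all probe sets, and neither passed the test. Rpl21 was at 12.42, 12.47, 12.49, 12.49 and 12.54 in AOM/DSS-treated Cygb-/- colons, against 12.55 to 12.64 with a median of 12.62 in untreated ones, each treated array being lower (log2 fold change -0.13, SE 0.05, adjusted p = 0.0682). Rpl38, named here after its values were seen, was at 10.76, 10.84, 10.83, 10.72 and 10.65, against 10.84 to 10.91 with a median of 10.88 in untreated Cygb-/- colons with the closest arrays of both groups at 10.84 after rounding (log2 fold change -0.12, SE 0.05, adjusted p = 0.12).

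In WT colons the same treatment was tested in other mice, with no array in common with the comparison in Cygb-/- colons. Here 11 of 64 genes (17.2%) changed, 8 higher and 3 lower, while 12.5% of all probe sets were higher and 14.3% lower, 26.7% together. In the brightest 10% 18.5% were higher and 27.2% lower, and of the 33 bright genes 3 were higher and 2 lower. No gene changed by 1.5-fold or more. The median log2 fold change was 0.00 over the 64 genes, 32 above 0 and 32 below, and -0.04 over all probe sets. The median size of a difference was 0.098 against 0.164 over all probe sets, and 0.0632 for the bright genes against 0.181 in the brightest 10%. A total of 52 genes stayed within 0.2 of 0. With each array centered on its median the count was 8, 4 higher and 4 lower, and after another quantile normalization 10, 6 higher and 4 lower. The count fell to 7 without AOM/DSS-treated WT replicate 7, when Rpl15, Rpl4, Rpl6l, Rps27 and Rps7 were not called. The shares of all probe sets called under these settings are not given here, so these counts have no background.

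**Figure D3:**
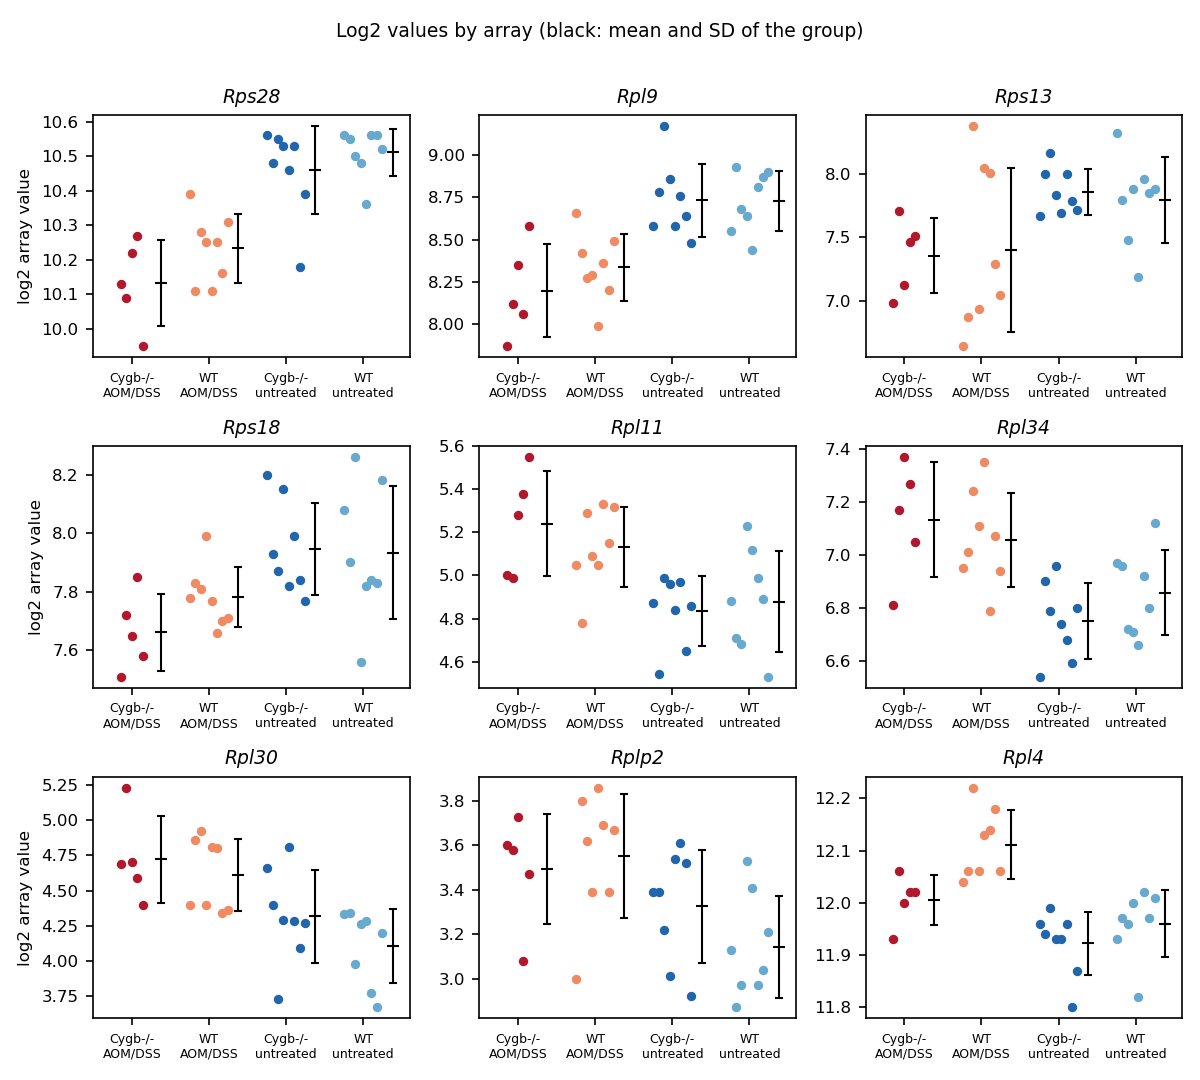
Log2 value of 9 ribosomal protein genes on each array, in AOM/DSS-treated Cygb-/-, AOM/DSS-treated WT, untreated Cygb-/- and untreated WT colons. Each point is 1 array and black marks the mean and SD, and Rps28 and Rpl9 are lower in both treated groups while Rps13 is split among treated WT arrays.

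The genes that rose most in WT colons had dim probe sets. Rpl30, a large-subunit protein that in yeast also regulates the splicing of its own transcript, lay between 4.34 and 4.92 with a median of 4.60 in AOM/DSS-treated WT colons, against 3.67 to 4.34 with a median of 4.23 in untreated ones. The groups met only at 4.34 (log2 fold change 0.51, SE 0.12, adjusted p = 0.00558). In Cygb-/- colons Rpl30 was at 4.69, 5.23, 4.70, 4.59 and 4.40 after AOM/DSS, against 3.73 to 4.81 with a median of 4.29 untreated, with a wider overlap.

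Rplp2, an acidic protein of the P stalk, lay between 3.00 and 3.86 with a median of 3.65 in AOM/DSS-treated WT colons, against 2.87 to 3.53 with a median of 3.08 in untreated ones. Replicate 1 was low among the treated arrays (log2 fold change 0.41, SE 0.12, adjusted p = 0.0188). Its mean over all arrays lay within the range of the arrays' lower quartiles.

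Rps27, a zinc-finger protein of the small subunit, lay between 6.56 and 7.00 with a median of 6.80 in AOM/DSS-treated WT colons, against 5.95 to 6.98 with a median of 6.44 in untreated ones. A single untreated array, replicate 1, lay above the treated median (log2 fold change 0.37, SE 0.12, adjusted p = 0.025). The probe set of Rps27 shares its values with another probe set, as do those of Rpl23a and Rps19. Rps7, a small-subunit gene whose protein can also bind Mdm2, lay between 5.59 and 6.11 with a median of 5.79, against 5.27 to 5.86 with a median of 5.46 in untreated WT colons, with broad overlap (log2 fold change 0.28, SE 0.09, adjusted p = 0.0345).

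Rps25, needed for translation from some viral internal ribosome entry sites, lay between 7.86 and 8.23 with a median of 8.09 in AOM/DSS-treated WT colons, against 7.77 to 7.94 with a median of 7.85 in untreated ones. Only 1 treated array, replicate 8, lay inside the untreated range (log2 fold change 0.23, SE 0.06, adjusted p = 0.00888). Rpl6l, a pseudogene related to Rpl6, rose by 0.23 (SE 0.08, adjusted p = 0.0349), between 9.77 and 10.07 with a median of 9.96 in AOM/DSS-treated WT colons and between 9.39 and 9.90 with a median of 9.76 in untreated ones, where the groups overlapped.

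In Rpl4, whose protein lines the exit tunnel of the large subunit, the groups did not overlap. It lay between 12.04 and 12.22 with a median of 12.10 in AOM/DSS-treated WT colons, against 11.82 to 12.02 with a median of 11.97 in untreated ones (log2 fold change 0.15, SE 0.05, adjusted p = 0.0255). It was the only 1 of the 64 genes with the groups apart in WT colons, as in 8.5% of all probe sets. Rpl15, a large-subunit gene with a long pyrimidine run, lay between 11.56 and 11.85 with a median of 11.71, against 11.43 to 11.65 with a median of 11.54 in untreated WT colons, and the ranges overlapped (log2 fold change 0.15, SE 0.05, adjusted p = 0.0465). The only probe set of Rpl15 was numbered with chromosome 12, while the gene lies on chromosome 14. Its call was lost when any of 11 of the 16 arrays was left out, that of Rps7 with any of 9 and that of Rpl6l with any of 6.

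The remaining 3 genes fell in WT colons. Rps28 lay between 10.11 and 10.39 with a median of 10.25 in AOM/DSS-treated WT colons, against 10.36 to 10.56 with a median of 10.53 in untreated ones. The overlap came from replicate 1 of the treated and replicate 5 of the untreated arrays (log2 fold change -0.28, SE 0.05, adjusted p = 0.000904). Rpl9 lay between 7.99 and 8.66 with a median of 8.33, against 8.44 to 8.93 with a median of 8.75 in untreated WT colons, with treated replicates 1 and 8 inside the untreated range (log2 fold change -0.39, SE 0.09, adjusted p = 0.00494).

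Rps10, at the mRNA entry side of the small subunit and a known ubiquitination target when ribosomes stall, lay between 6.04 and 6.17 with a median of 6.10 in AOM/DSS-treated WT colons, against 6.11 to 6.45 with a median of 6.29 in untreated ones. The untreated replicate 4 was the one that overlapped (log2 fold change -0.19, SE 0.05, adjusted p = 0.0148). In Cygb-/- colons Rps10 was at 6.20, 6.27, 6.30, 6.14 and 6.22 after AOM/DSS, against 6.08 to 6.25 with a median of 6.22 untreated, a difference of 0.02 that lay within this spread.

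Rps28 and Rpl9 were the 2 genes called in both genotypes, lower in both by their brightest probe sets. Their probe sets numbered with the gene's own chromosome had the opposite sign, at 0.31 in Cygb-/- and 0.28 in WT colons for Rps28 and at 0.20 and 0.11 for Rpl9. By subunit, in Cygb-/- colons 2 large-subunit genes rose and 1 fell (median 0.01 over 37), 1 small-subunit gene rose and 4 fell (median -0.05 over 24), and no P stalk gene was called. In WT colons 4 large-subunit genes rose and 1 fell (median 0.06), 3 small-subunit genes rose and 2 fell (median -0.03), and 1 of the 3 P stalk genes rose. Beside these counts, 26.1% of all probe sets were called in Cygb-/- colons and 26.7% in WT colons. Without the array of low Xist, the small-subunit gene Rps18 was not called in Cygb-/- colons and the large-subunit gene Rpl39 was. The P stalk genes other than Rplp2 were not called, Rplp0 being at 0.02 in Cygb-/- colons (adjusted p = 0.866) and 0.19 in WT colons (SE 0.07, adjusted p = 0.0677), and Rplp1 at 0.02 (adjusted p = 0.799) and -0.07 (adjusted p = 0.241). Rplp2 was at 0.17 in Cygb-/- colons (adjusted p = 0.418).

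None of the paralogs with tissue-restricted or induced expression was called after AOM/DSS in either genotype. Rpl3l, of striated muscle, was at -0.13 in Cygb-/- and -0.11 in WT colons. Rpl10l and Rpl39l, both best known from testis, were at -0.05 and -0.33 in Cygb-/- colons and at -0.04 and -0.19 in WT colons. Rps27l, a p53 target, was at -0.10 and -0.06, and Rps4l at 0.20 (adjusted p = 0.072) and -0.07.

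The calls fell both on the 24 genes with a pyrimidine run at the start and on the 25 without one. The background over the array was 26.1% of probe sets called in Cygb-/- colons and 26.7% in WT colons. A difference between genes with and without a run was not tested. In Cygb-/- colons 1 gene with a run rose and 2 fell (median 0.01), and 1 gene without a run rose and 3 fell (median -0.02). Without the array of low Xist, Rps18, with a run, was not called there and Rpl39, without one, was. In WT colons 4 with a run rose and 1 fell (median 0.00), and 2 without rose and 2 fell (median -0.02).

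The comparison between genotypes asked whether loss of Cygb changed these genes. In AOM/DSS-treated colons, limma called 0 of 64 genes between Cygb-/- and WT, against a background of 0.0339% of all probe sets higher and 0.133% lower. At an unadjusted p under 0.05 there were 8 of 64 genes, against 9.69% of all probe sets. With all 4 groups in 1 fit 1 gene, Rps4l, was called (log2 fold change 0.42, SE 0.10, adjusted p = 0.0245). The share of all probe sets called in that fit is not given here. Rps4l was at 5.38, 5.40, 5.55, 5.40 and 5.05 in AOM/DSS-treated Cygb-/- colons, against 4.58 to 5.18 with a median of 4.98 in AOM/DSS-treated WT colons. All treated Cygb-/- arrays except replicate 5 lay above the treated WT range, and the fit of these 2 groups alone gave an SE of 0.11 and an adjusted p of 0.185. The next smallest p-values were those of Rpl32l (log2 fold change -0.40, SE 0.14, adjusted p = 0.385) and Rps24 (-0.15, SE 0.06, adjusted p = 0.425).

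Of the 64 genes, 18 were above 0 and 46 below in this comparison, with a median of -0.05 against 0.00 over all probe sets, and -0.07 without the array of low Xist, where again 0 genes were called. In no gene did the treated genotypes lie fully apart, as they did in 0.646% of all probe sets.

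In untreated colons limma called 0 of 64 genes between Cygb-/- and WT, against 0.0121% of all probe sets higher and 0.00967% lower. The other fits that were run also called 0, and 1 gene had an unadjusted p under 0.05, against 6.98% of all probe sets. That gene was Rps4l, between 5.07 and 5.23 with a median of 5.17 in untreated Cygb-/- colons and between 4.69 and 5.26 with a median of 5.02 in untreated WT colons (log2 fold change 0.16, SE 0.07, adjusted p = 0.708). The WT arrays spread over a range that enclosed all Cygb-/- arrays. Rps27l (0.09, adjusted p = 0.741) and Rps12 (-0.08, adjusted p = 0.745) followed. The median was 0.00, and the groups lay apart in no gene, against 0.109% of all probe sets.

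The interaction, the AOM/DSS effect in Cygb-/- minus that in WT colons, was tested over all 4 groups. Limma called 0 of 64 genes, with 0.046% of all probe sets higher and 0.102% lower, and 0 in each other fit that was run. At an unadjusted p under 0.05 there were 3 genes, against 8.08% of all probe sets. They were Rps10 (0.21, adjusted p = 0.306), Rps4l (0.27, adjusted p = 0.607) and Rps26 (-0.15, adjusted p = 0.617). So the genes called in 1 genotype alone were not shown to differ between genotypes. The median over the 64 genes was -0.05, with 16 above 0 and 48 below, and -0.06 without the array of low Xist. This comparison and those of the genotypes share arrays with the treatment comparisons.

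**Figure D4:**
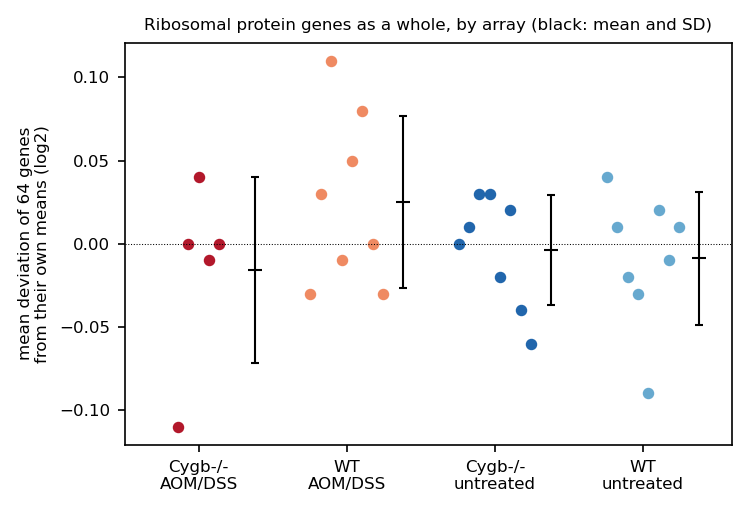
Mean deviation of the 64 ribosomal protein genes from their means over 29 arrays (log2), 1 point per array, for AOM/DSS-treated Cygb-/-, AOM/DSS-treated WT, untreated Cygb-/- and untreated WT colons. The 4 groups overlap, and the lowest array, at -0.11, is replicate 1 of the AOM/DSS-treated Cygb-/- colons.

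Taken over the 64 genes, the mean deviation from each gene's own mean was -0.02 ± 0.06 in AOM/DSS-treated Cygb-/- colons (SD, n = 5), 0.03 ± 0.05 in AOM/DSS-treated WT colons (n = 8), 0.00 ± 0.03 in untreated Cygb-/- colons (n = 8) and -0.01 ± 0.04 in untreated WT colons (n = 8). The ranges, from -0.11 to 0.04, -0.03 to 0.11, -0.06 to 0.03 and -0.09 to 0.04, overlapped. Replicate 1 of the AOM/DSS-treated Cygb-/- colons was the lowest of all arrays.

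Different probe sets of 1 ribosomal protein gene did not always move together. In all, 104 probe sets named 1 of the 64 genes alone, 24 genes having several. The numbers that identify probe sets run in chromosome order, since 99.4% of the 23010 probe sets whose neighbors settle a chromosome lie among those of their own gene's chromosome. Of the 64 probe sets described so far, 43 lay among those of the gene's own chromosome, 17 among those of another chromosome and 4 were not settled. This reading was made after the values were seen, and probe locations were not used here.

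In 18 genes both kinds of probe set were present, and the one numbered with another chromosome was the brighter in 15. Over all 104 probe sets, the 64 numbered with their own chromosome had 8 higher and 3 lower calls in Cygb-/- colons (median 0.07) and 11 higher and 3 lower in WT colons (median 0.09). The 34 numbered with another chromosome had 0 higher and 5 lower in Cygb-/- colons (median -0.08) and 1 higher and 4 lower in WT colons (median -0.04). Of all probe sets on the array, 12.6% were higher and 13.5% lower in Cygb-/- colons, and 12.5% higher and 14.3% lower in WT colons. The share of higher and lower calls thus moved with the numbering, and so did brightness, the median of the means being 5.71 for own-chromosome probe sets and 11.02 for the others. These are counts of probe sets and not of genes, as several probe sets of 1 gene were counted apart, 8 for Rps12 alone. Without the array of low Xist the own-chromosome probe sets had 7 higher and 4 lower calls in Cygb-/- colons (median 0.04) and the others 0 higher and 4 lower (median -0.08). The cause was not tested.

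**Figure D5:**
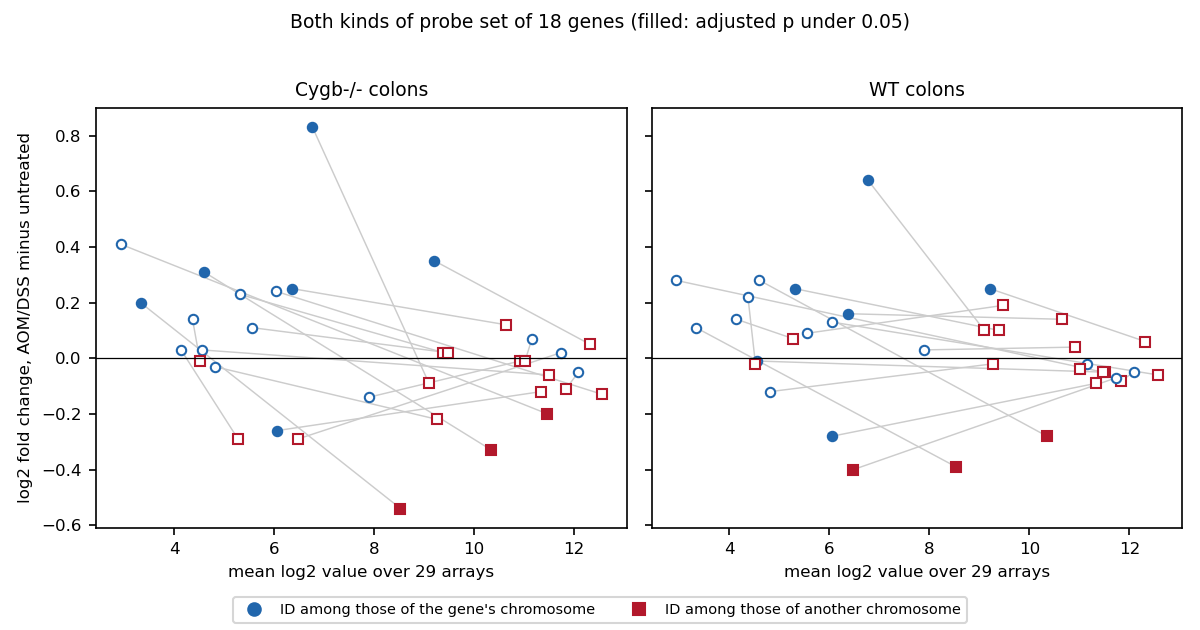
Log2 fold change after AOM/DSS (AOM/DSS minus untreated) against the mean log2 value over 29 arrays for 18 genes with both kinds of probe set, in Cygb-/- colons (left) and WT colons (right). Blue circles are probe sets numbered with the gene's own chromosome, red squares those numbered with another, grey lines join probe sets of 1 gene and filled symbols have an adjusted p under 0.05.

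The largest gap was in Rpl3, whose protein lies close to the peptidyl transferase center. Its brightest probe set, of mean 9.10 and numbered with the X chromosome, was at -0.09 in Cygb-/- colons (adjusted p = 0.479) and 0.10 in WT colons (adjusted p = 0.374). Another, of mean 6.77 and numbered with the gene's own chromosome 15, rose by 0.83 in Cygb-/- colons (adjusted p = 8.36e-05) and by 0.64 in WT colons (adjusted p = 0.00084), above any of the 64 probe sets described so far. The dimmest, of mean 3.48 and also numbered with chromosome 15, was at -0.03 and -0.10.

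Of the 5 genes that fell in Cygb-/- colons, Rps28, Rpl9 and Rps26 had a second probe set, and its difference had the opposite sign. Rps18 had 3 probe sets, from -0.28 to 0.14 in Cygb-/- colons, of which 1 was called. The own-chromosome probe set of Rps28, of mean 4.60, rose by 0.31 in Cygb-/- colons (adjusted p = 0.0343) and was at 0.28 in WT colons (adjusted p = 0.0629). That of Rpl9, of mean 3.33, rose by 0.20 in Cygb-/- colons (adjusted p = 0.0429) and was at 0.11 in WT colons, and without the array of low Xist it was at 0.19 in Cygb-/- colons and not called (adjusted p = 0.0855). That of Rps26, of mean 2.93, was at 0.41 in Cygb-/- colons (adjusted p = 0.0984) and 0.28 in WT colons. The second probe sets of Rpl9 and Rps26 had means within or below the range of the arrays' lower quartiles, 3.26 to 3.37, so a signal above background is not shown for them. The lower level of Rps28, Rpl9, Rps26 and Rps18 after AOM/DSS is a result of 1 probe set each.

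In Rps24, mutated in some patients with Diamond-Blackfan anemia, the chosen probe set was at -0.19 in Cygb-/- colons (adjusted p = 0.054) and -0.02 in WT colons. A second one, of mean 8.00, fell by 0.45 in Cygb-/- colons (adjusted p = 0.00234) and by 0.25 in WT colons (adjusted p = 0.0134), and the dimmest, of mean 5.91, was at 0.17 and 0.11. In Rpl4, the chosen probe set was at 0.08 in Cygb-/- colons (adjusted p = 0.293), and a second one, of mean 6.52, fell by 0.37 (adjusted p = 0.0138) and was at -0.06 in WT colons.

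The 57 probe sets that named a ribosomal protein gene together with other genes had 6 higher and 10 lower calls in Cygb-/- colons (28.1% called, median -0.04, from -0.86 to 1.19) and 8 higher and 11 lower in WT colons (33.3%, median 0.03, from -0.82 to 1.98), where 26.1% and 26.7% of all probe sets were called. With the array of low Xist left out, 2 were higher and 12 lower in Cygb-/- colons (median -0.04). Some ribosomal protein genes carry small nucleolar RNA genes in their introns. The 9 of these probe sets that also named one had 1 higher and 3 lower calls in Cygb-/- colons (median -0.17) and 2 higher and 4 lower in WT colons (median -0.09). No level of a ribosomal protein gene can be read from them.

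Most of the genes that build ribosomes passed the test, where most ribosomal protein genes did not. These sets of genes were not matched for level. Over all probe sets 26.1% were called in Cygb-/- colons and 26.7% in WT colons. Of 55 measured ribosome biogenesis genes, 46 rose and 1 fell after AOM/DSS in Cygb-/- colons (85.5% called, median 0.47), and 36 rose and 1 fell in WT colons (67.3%, median 0.29). Without the array of low Xist 43 rose and 1 fell in Cygb-/- colons (median 0.47). Noc4l, of the small-subunit processome, rose by 0.87 in Cygb-/- colons (SE 0.08, adjusted p = 2.84e-06) and by 0.49 in WT colons (SE 0.10, adjusted p = 0.00134). Wdr43, a nucleolar processome protein, rose by 0.66 (adjusted p = 3.15e-06) and 0.42 (adjusted p = 0.0038), and Ddx21, a nucleolar RNA helicase, by 0.76 (adjusted p = 3.29e-06) and 0.55 (adjusted p = 0.000189). Of 16 RNA polymerase I genes and factors, 4 rose and 1 fell in Cygb-/- colons (31.2% called) and 3 rose and 3 fell in WT colons (37.5%), Rrn3, the initiation factor that recruits the polymerase, rising by 0.58 (adjusted p = 0.000104) and 0.36 (adjusted p = 0.0112).

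Of 27 translation initiation factors, 10 rose and 0 fell in Cygb-/- colons (37% called) and 12 rose and 1 fell in WT colons (48.1%). Eif4e, which binds the mRNA cap, rose by 0.41 in Cygb-/- colons (adjusted p = 0.000584) and by 0.21 in WT colons (adjusted p = 0.0358). Of 10 elongation factors, 3 rose and 2 fell in Cygb-/- colons (50%) and 1 rose and 1 fell in WT colons (20%). Of 24 regulators of ribosomal protein mRNAs and their translation, 4 rose and 7 fell in Cygb-/- colons (45.8%) and 3 rose and 4 fell in WT colons (29.2%), against the same 26.1% and 26.7% of all probe sets. Without the array of low Xist the counts in Cygb-/- colons were 8 higher and 1 lower for initiation factors, 2 and 1 for elongation factors, 4 and 7 for the regulators and 3 and 1 for RNA polymerase I and its factors. Among the regulators Eif4ebp2, a repressor of cap-dependent translation, fell by 0.50 (adjusted p = 1.74e-05) and 0.64 (adjusted p = 1.21e-06), and Ddit4, an inhibitor of mTORC1, rose by 1.07 (adjusted p = 2.5e-05) and 1.04 (adjusted p = 8.69e-05).

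The mitochondrial ribosomal protein genes, 71 measured, had 7 higher and 11 lower calls in Cygb-/- colons (25.4% called, median -0.03) and 1 higher and 14 lower in WT colons (21.1%, median -0.06), close to the 26.1% and 26.7% of all probe sets. In Cygb-/- colons without the array of low Xist, 5 were higher and 11 lower (median -0.03). Mrps31 fell by 0.49 in Cygb-/- colons (adjusted p = 3.95e-05) and by 0.44 in WT colons (adjusted p = 2.73e-05). Of 4 measured relatives outside the symbol rule, Fau, which encodes the small-subunit protein Rps30, fell by 0.23 in Cygb-/- colons (adjusted p = 0.00471), Rpl22l1 fell by 0.22 (adjusted p = 0.0493) and Rpl7l1 rose by 0.28 (adjusted p = 0.022), and none was called in WT colons.

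The levels of cell type marker mRNAs moved strongly with the treatment beside these small differences. All 10 neutrophil and all 10 macrophage markers rose in both genotypes, the neutrophil markers with a median of 4.02 in Cygb-/- and 2.52 in WT colons. The mean deviation of the neutrophil markers lay between 1.10 and 2.96 in AOM/DSS-treated Cygb-/- colons and between -1.43 and -1.11 in untreated Cygb-/- colons, and between 0.77 and 2.25 in AOM/DSS-treated WT colons and between -1.45 and -1.19 in untreated WT colons. Smooth muscle markers fell, 10 of 10 in both genotypes, and goblet cell markers fell in 7 of 8 in Cygb-/- and 8 of 8 in WT colons. Crypt proliferation markers rose in 9 of 10 in Cygb-/- and 6 of 10 in WT colons, and squamous epithelium markers in 7 of 13 in both. Absorptive colonocyte markers fell in 9 of 14 in Cygb-/- and 8 of 14 in WT colons. Fibroblast markers rose in 7 of 8 in both genotypes, T cell markers in 7 of 8, B and plasma cell markers in 8 of 9 and pan-leukocyte markers in 7 of 7. Over all probe sets 26.1% were called in Cygb-/- colons and 26.7% in WT colons. Without the array of low Xist the counts in Cygb-/- colons were 10 for neutrophil, 10 for macrophage, 10 for smooth muscle, 7 for goblet cell, 7 for crypt proliferation and 5 for squamous epithelium markers. The neutrophil median was then 3.71. The other counts were then 8 for absorptive colonocyte, 6 for fibroblast, 5 for T cell, 8 for B and plasma cell and 7 for pan-leukocyte markers. The squamous markers differed within groups. Their mean deviation was below 0 in AOM/DSS-treated Cygb-/- replicates 2 and 4 and AOM/DSS-treated WT replicates 3 and 4, and it was 1.04 and 0.34 in untreated WT replicates 5 and 6 and at most -0.79 in the other untreated WT arrays. Untreated WT replicate 5 was also its group's lowest for the 64 ribosomal protein genes, at -0.09, and without it 9 of these genes were called after AOM/DSS in WT colons, 6 higher and 3 lower, with a median of -0.01. The share of all probe sets called without that array is not given here. The part of these shifts in the values of the ribosomal protein genes was not tested.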

How the data were processed

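RNA of mouse distal colon was hybridized to 29 Affymetrix Mouse Gene 2.0 ST arrays. The authors deposited log2 values per probe set, made with RMA (named without a version in the submitters' notes) in the Oligo package and normalized between arrays; background and scanner values were not used here. Gene names came from the platform annotation, in which a probe set may name several genes; start sites and sequences came from RefSeq, GRCm38.p6.

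Each pair of groups was compared by itself in limma 3.58.1 (lmFit, then eBayes, run in R 4.3.3). Tests were two-sided, p-values were adjusted after Benjamini-Hochberg across the 41345 probe sets, and an adjusted p under 0.05 made a call. The interaction was fitted over all 4 groups. No filter on dim probe sets was applied. The precision is limited by the number of arrays, 5 or 8 per group. Nothing ties replicate numbers to pairs, and same-numbered arrays did not deviate together in each pair, so arrays were not paired. Probe set numbers were assigned to a chromosome where at least 0.7 of 10 neighbors on each side named one.

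The members, the gene lists and the tests were chosen with earlier results of these data known. Genes named were, in each comparison, the 5 highest and 5 lowest of those called (with none called, the 3 smallest p), the 3 brightest and dimmest, the 3 with the largest and smallest SD, the P stalk genes, restricted paralogs, the reference genes of the methods, up to 6 genes whose probe sets disagree, and at most 3 genes per other list. Rpl38, Rpl39, Rpl6l, Rpl15 and the second probe sets of Rpl29, Rpsa and Rplp1 fell outside that rule and were chosen after their values were seen. Alternatives concerned the variance model, the arrays in the fit, the centering and normalization, the filter, the methods' t-test, the replicate block, the choice of probe set and single arrays left out; the own-chromosome probe set, and the other gene lists without the array of low Xist, were added after the data were seen.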

Additional observations from a re-analysis of the deposited data

Results flagged for a closer look

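Among 76 groups of values (the genes called in a comparison, Rplp0 and the mean deviation of the 64 genes, in each of the 4 groups), 6 had an array far from the others, by the gap of the highest or lowest array to its nearest neighbor against the range of the group. Chance flags about 1 in 20 groups. In AOM/DSS-treated WT colons Rps7 was at 6.11 in replicate 3, the next array being at 5.83 and the lowest at 5.59. In untreated Cygb-/- colons, replicate 5 was apart for Rps10, at 6.08 where the next array was at 6.19 and the highest at 6.25, and for Rps14, at 5.62 where the next was at 5.39 and the lowest at 5.23. Replicate 7 of the same group was apart for Rps25, at 7.51 against 7.80 and 7.99, and for Rps28, at 10.18 against 10.39 and 10.56. In untreated WT colons Rps28 was at 10.36 in replicate 5, with 10.48 for the next array and 10.56 for the highest.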

How the results depend on the processing

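In Cygb-/- colons the 8 genes called after AOM/DSS became 13 with a variance trend and robust fit (8 shared), 13 with all 4 groups in 1 fit (7 shared, without Rps13), 15 among probe sets above the median of the means, 14 among single-gene probe sets, 0 by the methods' t-test with its 1.5-fold threshold, which no gene reached, and 5 with the replicate block. Arrays of the same number gave mean correlations of deviations of -0.0218, -0.0076, 0.076 and -0.0519 in the 4 comparisons of groups, so the numbers were not taken as pairs. The block gave 8 genes in WT colons and 0 in the other comparisons. In WT colons the 11 genes became 0 by the methods' t-test and 8 to 16 otherwise, 16 (13 higher, 3 lower) with arrays centered on the brightest 10%. The centerings shifted arrays by at most 0.06. No share of all probe sets called is given for these settings, and the test above the median of the means left out 9 of the 64 genes. Between AOM/DSS-treated genotypes the 0 became 1 with all 4 groups in 1 fit.

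With the own-chromosome probe set, available for 60 genes, 10 genes were called in Cygb-/- colons (8 higher, 2 lower) and 13 in WT colons (11 higher, 2 lower), and the medians moved to 0.07 and 0.09. The main fit called 12.6% of all probe sets higher and 13.5% lower in Cygb-/- colons, and 12.5% and 14.3% in WT colons. Directions reversed in Cygb-/- colons for Rpl9 (0.20), Rps18 (0.14), Rps26 (0.41) and Rps28 (0.31), and in WT colons for Rpl9 (0.11) and Rps28 (0.28), the probe sets of Rpl9 and Rps26 being no brighter than the arrays' lower quartiles. With the mean over all probe sets of a gene, Rps26 reversed to 0.11 in Cygb-/- colons, and 8 genes were called (6 higher, 2 lower). The cause was not tested.

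With single arrays left out, the counts ranged over 7 to 11 in Cygb-/- colons, and over 7 (without AOM/DSS-treated replicate 7) to 14 in WT colons, and stayed at 0 for both genotype comparisons and the interaction. Except for the array of low Xist, no share of all probe sets called is given for these refits. The medians ranged over -0.01 to 0.03 in Cygb-/- colons, -0.01 to 0.03 in WT colons, -0.07 to -0.03 between treated genotypes, -0.03 to 0.00 between untreated genotypes and -0.06 to -0.02 for the interaction. Of 280 refits of a called gene, 241 kept the call and none reversed.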

Other observations

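Own-chromosome probe sets of 2 further genes rose in both genotypes while their brighter probe sets were not called. That of Rpl29, of mean 9.21, rose by 0.35 in Cygb-/- colons (adjusted p = 0.00385) and by 0.25 in WT colons (adjusted p = 0.0145), where the brighter one was at 0.05 and 0.06. That of Rpsa, a small-subunit gene also known as the laminin receptor, had a mean of 6.37 and rose by 0.25 in Cygb-/- colons (adjusted p = 0.0144) and by 0.16 in WT colons (adjusted p = 0.0333), where the brighter one was at 0.12 and 0.14. Rplp1 had a second probe set, of mean 6.48 and numbered with chromosome 7, at -0.29 in Cygb-/- colons (adjusted p = 0.141), which fell by 0.40 in WT colons (adjusted p = 0.00615).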
